A study of Mus musculus with 12 samples.

Results

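The comparison described here is that between Ikaros-deficient and wild-type (WT) follicular B cells after 12 h of stimulation through the B cell receptor. It compares 4 of the 12 arrays of the series, taken by title: 2 arrays of IkL/L cells and 2 of WT cells, so n = 2 per group throughout. Both groups were splenic follicular B cells of 6-week-old C57Bl/6 mice, sorted for B220, high CD23 and low CD21 to a purity above 98%, and cultured for 12 h in complete medium. The medium held goat anti-mouse IgM F(ab')2 fragments (10 µg/ml), which cross-link surface IgM. The IkL/L mice carry the altered Ikzf1 allele on both chromosomes in the germline, so the B cells had also developed with reduced Ikaros. The remaining 8 arrays hold the same genotypes after 3 h with anti-IgM and after 3 h without it (called unstimulated here), and no 12 h culture without anti-IgM was measured. Values are log2 signals of Affymetrix probe sets summarized with RMA, and each of 18193 genes was represented by its brightest probe set. The series describes 2 independent experiments, but the labels do not say which arrays belong to which, and p-values cover no more than the spread among the arrays. In the main fit that spread was estimated from all 12 arrays, not from the 4 compared.

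Ikaros, the product of Ikzf1, is a zinc finger protein that binds DNA with a GGGAA core and recruits chromatin complexes, and it both silences and activates genes of lymphoid cells. It is needed for B cells to form at all, and the L allele leaves a low level of the protein, which lets mature B cells develop. Cross-linking of surface IgM starts kinase, calcium and Ras signalling in follicular B cells, which then grow, change their surface receptors and prepare to divide.

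The libraries matched their tissue: all 10 measured B cell markers lay above the signal floor at 12 h. That floor was set at a log2 signal of 4.21, 1 above the highest array median. Replicates correlated across genes with r = 0.99 in WT and r = 0.993 in IkL/L, but 213 genes in WT and 145 in IkL/L differed by more than 1 log2 unit between the 2 arrays. WT replicate 1 came from a female source, with log2 signals of 10.01 for Xist, the RNA that coats the inactive X chromosome, and 2.83 for the Y-linked Eif2s3y. The other 3 arrays had the male pattern, with Xist between 3.22 and 3.47 and Eif2s3y between 8.30 and 8.95. The interferon-induced Usp18 also parted the WT arrays (7.01 and 3.27), while Il6 parted the IkL/L arrays (3.20 and 6.80). The targeted gene Ikzf1 had signals of 10.33 and 10.00 in WT against 9.59 and 8.98 in IkL/L (log2 difference -0.88, SE 0.22, limma adjusted p = 0.148). The position of its probe set relative to the altered part of the gene is not known here, so it checks nothing about the genotype.

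At 12 h, 112 of 18193 genes (0.616%) differed between the genotypes at an adjusted p under 0.05 in limma. Of these, 82 (0.451% of all genes) were higher in IkL/L cells and 30 (0.165%) were lower. The log2 difference reached 1 in size for 62 of the higher and 21 of the lower genes, but many of these include signals near background. With signals under the floor of 4.21 in the lower group raised to it, 46 and 18 reached 2-fold. In all 112 the IkL/L arrays did not overlap the WT arrays, which also held for 6935 of all genes (38.1%). Absolute differences ran from 0.65 to 3.33 on the log2 scale. Unstimulated cells had 205 such genes (1.13%) and cells at 3 h had 310 (1.7%). The last genes inside the threshold were Rasgrp1 (adjusted p = 0.0474) and Ptprs (adjusted p = 0.0476), and the first outside it were Trp53inp1 (adjusted p = 0.0504) and Rem2 (adjusted p = 0.0515). With the source (a genotype and replicate number) as a random block, 116 genes were called, 108 of them among the 112. With the replicate number as a block shared by both genotypes, 187 were called, including all 112. With the source as a fixed block within each genotype, which leaves the spread between sources out of the error, 467 genes were called, including all 112.

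**Figure D1:**
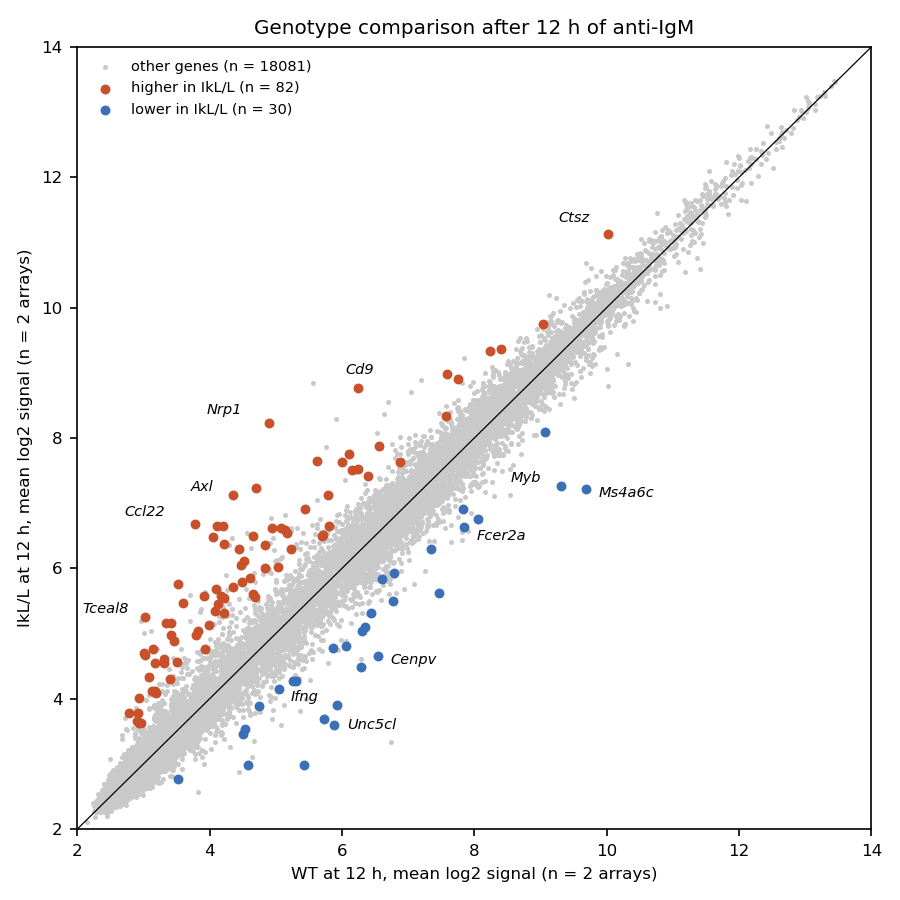
Mean log2 signal of each gene in WT (horizontal) and IkL/L cells (vertical) after 12 h of anti-IgM, n = 2 arrays per mean. The 82 genes higher in IkL/L cells (orange) include many that lie near the signal floor in WT cells, and the 30 lower genes (blue) fall below the diagonal of equal signal.

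The list leaned on single arrays. Of the 112 genes, 66 were called without WT replicate 1, 31 without WT replicate 2, 73 without IkL/L replicate 1 and 23 without IkL/L replicate 2. Calls in total then numbered 132, 34, 162 and 24. A set of 19 genes was called whichever of the 4 arrays was left out, 17 higher and 2 lower. They were Axl, Ccl22, Tceal8, Tmem176b, Rhbdf1, Abcb1b, Cd9, Dnph1, Spin2c, Spr, Vwa5a, Wls, 2810025M15Rik, Atp10a, Bcl2l2, Spata13 and Tmem51, which were higher, and Cenpv and Ms4a6c, which were lower. Leaving out a source in all 3 conditions kept 37 of the 112 calls without WT replicate 1, the female source, 14 without WT replicate 2, 44 without IkL/L replicate 1 and 4 without IkL/L replicate 2. A fit of the 4 arrays alone kept 4. In each of 20 other settings all 112 kept their sign, and against WT replicate 2 alone all 112 kept it too, by at least 0.68. As the groups of all 112 did not overlap at 12 h, leaving out arrays could not turn a sign. The kept signs are thus no separate check against single arrays or the female source. Scaling to housekeeping genes moved the median difference of all genes from 0.00 to -0.10 and left 50 of the 112.

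4 genes, Ccl22, Axl, Tceal8 and Tmem176b, were called in every setting tried, and all 4 were higher in IkL/L cells. Ccl22 encodes a chemokine that attracts T cells through CCR4. Its 12 h signals were 3.90 and 3.65 in WT against 6.54 and 6.83 in IkL/L, so both WT arrays lay under the floor and both IkL/L arrays well above it. The transcript was at least 5.56-fold higher in IkL/L cells (log2 2.90, SE 0.15, adjusted p = 4.18e-05). A fold marked "at least" is a bound, computed with the arrays of the lower group that lie under the floor raised to it, and a floor of 4.58 would lower this one to 4.30. Axl, a receptor tyrosine kinase that binds Gas6, had signals of 4.56 and 4.14 in WT against 7.22 and 7.04 in IkL/L. It was at least 6.70-fold higher (log2 2.78, with an SE of 0.16, adjusted p = 4.18e-05). Tceal8, named for its likeness to an elongation factor, had 2.96 and 3.09 in WT against 5.27 and 5.24 in IkL/L, at least 2.07-fold higher (log2 2.24, with an SE of 0.12, adjusted p = 4.18e-05). Tmem176b, a membrane protein of endosomes, had 4.04 and 4.19 in WT against 6.84 and 6.47 in IkL/L, at least 5.45-fold higher (log2 2.54, with an SE of 0.16, adjusted p = 8.69e-05). For each of the 4 the arrays of a group lay close together and far from those of the other genotype.

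The promoters of several of these genes are printed because Ikaros binds DNA directly. Each line is the 250 bases before the start of a RefSeq transcript (assembly GRCm38.p6), 5′ to 3′ on the gene's strand. Capitals mark TGGGAA, an Ikaros core motif, or its reverse complement TTCCCA, the only 2 forms searched. The genes were chosen after their values were seen: 4 that were higher and 2 that were lower.
Ccl22, chr8:94745434-94745683, plus strand: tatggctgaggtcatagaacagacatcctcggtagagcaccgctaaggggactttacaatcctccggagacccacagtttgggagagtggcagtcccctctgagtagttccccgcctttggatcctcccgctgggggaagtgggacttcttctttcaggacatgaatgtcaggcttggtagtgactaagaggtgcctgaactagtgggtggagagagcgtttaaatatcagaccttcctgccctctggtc
Axl, chr7:25788734-25788983, minus strand: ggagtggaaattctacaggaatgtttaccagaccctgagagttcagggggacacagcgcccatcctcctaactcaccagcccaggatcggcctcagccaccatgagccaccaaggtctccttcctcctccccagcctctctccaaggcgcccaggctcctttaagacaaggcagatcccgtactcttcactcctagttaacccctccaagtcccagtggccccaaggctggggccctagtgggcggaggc
Tceal8, chrX:136172252-136172501, minus strand: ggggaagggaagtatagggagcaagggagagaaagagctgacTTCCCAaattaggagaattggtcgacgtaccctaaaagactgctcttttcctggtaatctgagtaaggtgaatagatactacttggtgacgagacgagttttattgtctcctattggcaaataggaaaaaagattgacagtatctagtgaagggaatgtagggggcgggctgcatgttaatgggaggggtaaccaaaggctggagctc
Cd9, chr6:125494761-125495010, minus strand: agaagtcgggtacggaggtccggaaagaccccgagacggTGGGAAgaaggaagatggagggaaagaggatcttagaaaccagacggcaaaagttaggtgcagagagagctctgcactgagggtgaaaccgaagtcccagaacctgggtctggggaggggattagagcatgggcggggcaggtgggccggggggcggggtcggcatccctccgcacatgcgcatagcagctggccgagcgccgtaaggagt
Ms4a6c, chr19:11469118-11469367, plus strand: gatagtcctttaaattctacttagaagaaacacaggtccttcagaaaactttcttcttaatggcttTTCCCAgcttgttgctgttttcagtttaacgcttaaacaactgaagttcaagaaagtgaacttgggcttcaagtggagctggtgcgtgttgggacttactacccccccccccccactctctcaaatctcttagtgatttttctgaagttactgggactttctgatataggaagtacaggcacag
Rgs13, chr1:144177373-144177622, minus strand: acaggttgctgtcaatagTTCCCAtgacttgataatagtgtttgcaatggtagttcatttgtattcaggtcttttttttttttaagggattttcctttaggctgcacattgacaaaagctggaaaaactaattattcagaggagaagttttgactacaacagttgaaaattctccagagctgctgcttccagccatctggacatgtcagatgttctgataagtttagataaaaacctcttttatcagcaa
Cd9 holds the motif as printed, starting 211 bases before the start. Tceal8, Ms4a6c and Rgs13 hold it on the opposite strand, with the first base 208, 184 and 232 bases before the start. The windows of Ccl22 and Axl do not hold these letters. The shorter core GGGAA was not searched, and it occurs in the printed window of Ccl22. Among the called genes that were higher, 27 of 67 with a promoter (40.3%) held the motif, and among those that were lower 8 of 24 (33.3%) did. Of all 14452 genes with a promoter, 24.2% held it. Counted by window, the shares were 34.1% of 82, 32.3% of 31 and 21.1% of 18109, with median GC contents of 56.2%, 58.4% and 57.6%. These shares are a description with no test, and a match of 6 letters is not a binding site.

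**Figure D2:**
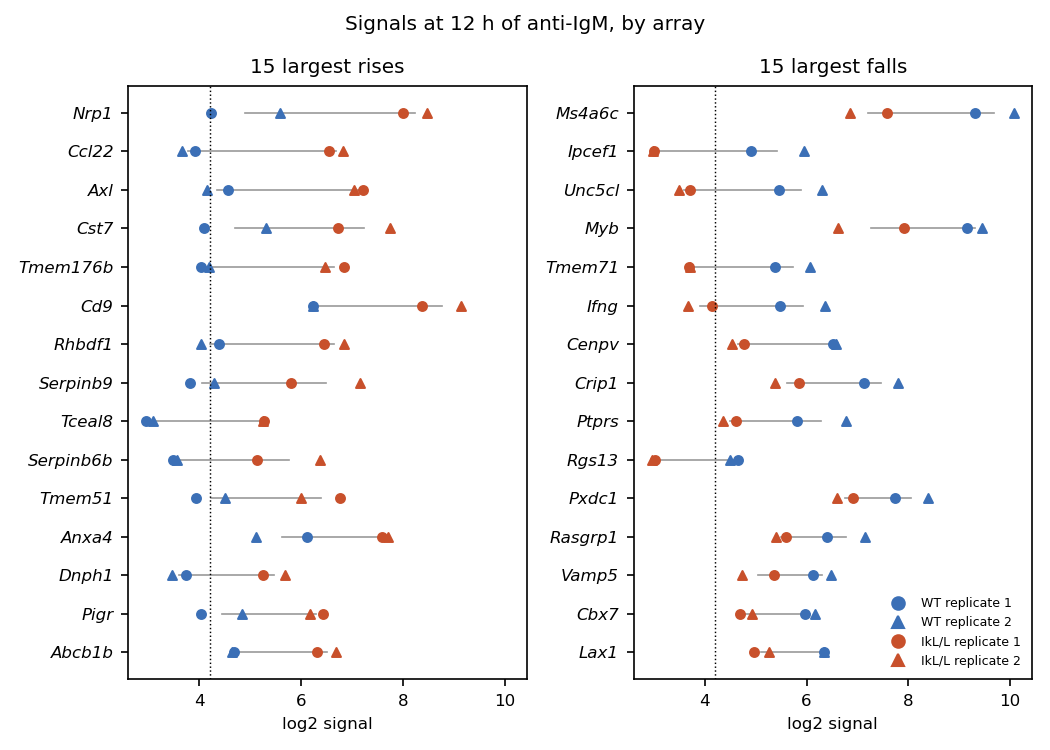
Log2 signal at 12 h in each of the 4 arrays for the 15 largest differences in each direction, with circles for replicate 1, triangles for replicate 2, grey lines joining the group means and a dotted line at the floor of 4.21. In every row the WT points (blue) and IkL/L points (orange) do not overlap, while the arrays of a group lie over 1 log2 unit apart in some, such as Nrp1 in WT and Myb in IkL/L.

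Receptors and other surface proteins with higher signals are described first (the groups by role used from here on were formed from the called genes after the values were seen, and no count or test supports them as groups). Nrp1, a coreceptor for semaphorins and VEGF, differed most of all 112. It had signals of 4.22 and 5.58 in WT against 8.0 and 8.47 in IkL/L, a 10.1-fold difference (log2 3.33, SE 0.47, adjusted p = 0.0146). The 3 other probe sets of Nrp1 were higher as well, by 2.63 to 3.65, each past the threshold when probe sets were tested one by one. Cd9, a tetraspanin carried by marginal zone and B1 cells and by plasma cells, had 6.24 in both WT arrays and 8.37 and 9.15 in IkL/L. It was 5.74-fold higher (log2 2.52, SE 0.24, adjusted p = 0.00188). Cd36, a scavenger receptor for lipids, lay under the floor in WT (3.13 and 2.92) and at 4.65 and 4.70 in IkL/L, at least 1.38-fold higher (log2 1.65, with an SE of 0.24, adjusted p = 0.0188). Pigr, the receptor that carries polymeric immunoglobulin across epithelia, had 4.04 and 4.84 in WT against 6.43 and 6.17 in IkL/L (log2 1.86, SE 0.24, adjusted p = 0.0125). The transporter Abcb1b, which pumps drugs out of cells, had 4.67 and 4.65 in WT against 6.32 and 6.69 in IkL/L, 3.59-fold higher (log2 1.84, SE 0.20, adjusted p = 0.00328). Anxa4, an annexin that binds membrane lipids with calcium, had 6.12 and 5.11 in WT against 7.59 and 7.71 in IkL/L, 4.08-fold higher (log2 2.03, SE 0.27, adjusted p = 0.013). Bmpr2, a receptor for bone morphogenetic proteins, and Smad1, which carries their signal, were both higher, by 1.58 (SE 0.29, adjusted p = 0.0461) and 1.31 (SE 0.18, adjusted p = 0.0146). Csf2rb, the shared chain of the IL-3, IL-5 and GM-CSF receptors, was higher by 1.10 (SE 0.19, adjusted p = 0.0408). Without IkL/L replicate 2 the adjusted p was 0.146 for Nrp1, 0.111 for Anxa4, 0.15 for Cd36, 0.0688 for Pigr, 0.239 for Bmpr2, 0.146 for Smad1 and 0.367 for Csf2rb. Without WT replicate 2 it was 0.155 for Cd36, 0.0993 for Bmpr2 and 0.172 for Csf2rb, and without WT replicate 1 it was 0.128 for Bmpr2, 0.0534 for Smad1 and 0.11 for Csf2rb. Without IkL/L replicate 1 it was 0.137 for Bmpr2.

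Several higher genes encode lysosomal proteins, and genes for protease inhibitors and a protease escort are described with them. Ctsz, a lysosomal carboxypeptidase, was the brightest of the 112 in IkL/L cells, with 10.18 and 9.88 in WT against 11.10 and 11.16 in IkL/L. It was 2.15-fold higher (log2 1.10, SE 0.15, adjusted p = 0.013), and its 2 other probe sets were higher by 1.00 and 1.15. Ctsb, cathepsin B, had 8.25 and 8.57 in WT against 9.39 and 9.33 in IkL/L, 1.93-fold higher (log2 0.95, SE 0.14, adjusted p = 0.0182). Ifi30, the thiol reductase that unfolds antigens in the lysosome, had 7.35 and 7.83 in WT against 8.81 and 9.17 in IkL/L, 2.63-fold higher (log2 1.40, SE 0.23, adjusted p = 0.0297). The lysosomal membrane proteins Laptm4b and Cd68 were higher by 1.65 (SE 0.28, adjusted p = 0.0336) and 1.41 (SE 0.21, adjusted p = 0.019). Cst7, an inhibitor of cysteine cathepsins, had 4.09 and 5.31 in WT against 6.73 and 7.75 in IkL/L, at least 5.59-fold higher (log2 2.54, with an SE of 0.38, adjusted p = 0.0191). Serpinb9, the inhibitor of granzyme B, had 3.81 and 4.29 in WT against 5.79 and 7.16 in IkL/L, at least 4.69-fold higher (log2 2.43, with an SE of 0.42, adjusted p = 0.0351). Its neighbour in the genome Serpinb6b had 3.48 and 3.56 in WT against 5.14 and 6.37 in IkL/L (log2 2.23, SE 0.33, adjusted p = 0.0184). Rhbdf1, an inactive rhomboid protein that escorts a shedding protease, had 4.38 and 4.03 in WT against 6.46 and 6.84 in IkL/L. That difference was at least 5.10-fold (log2 2.44, SE 0.22, adjusted p = 0.0018). When IkL/L replicate 2 was left out, the adjusted p lay between 0.107 and 0.253 for Ctsz, Ctsb, Ifi30, Laptm4b, Cd68, Cst7 and Serpinb9. Without WT replicate 2 it was 0.099 for Ctsz, 0.0599 for Ifi30, 0.146 for Serpinb9 and 0.118 for Serpinb6b. Without WT replicate 1 it lay between 0.0601 and 0.104 for Ctsb, Ifi30, Laptm4b, Serpinb9 and Serpinb6b. Without IkL/L replicate 1 it lay between 0.0584 and 0.0939 for Ctsb, Cd68 and Laptm4b.

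Cd68 is also a marker of monocytes and macrophages, so the other markers of that list were read beside it. The list had 2 of 10 genes above the floor (Adgre1 and Cd68). Adgre1 had 4.80 and 5.03 in WT against 5.16 and 5.94 in IkL/L (log2 0.63, adjusted p = 0.345). The group means of Lyz2, Csf1r, Itgam, Cd14, Fcgr1, C1qa, C1qb and Vcam1 lay under the floor, though Lyz2 had 4.51 in WT replicate 2. At an unadjusted p under 0.05 in limma, 3 of the 10 were higher and 0 lower. The summed linear signal of the list was 119 and 138 in WT against 160 and 182 in IkL/L. Neutrophil markers had 4 of 8 above the floor (S100a8, S100a9, Ngp and Camp). They summed to 81 and 415 in WT against 114 and 268 in IkL/L, apart by replicate more than by genotype. The 4 named had 3.42, 3.30, 3.58 and 3.60 in WT replicate 1 against 7.26, 6.09, 6.50 and 5.69 in WT replicate 2. The group means of Elane, Mpo, Ltf and Prtn3 lay under the floor, though Ltf had 4.27 in WT replicate 2. T cell markers had 1 of 9 above the floor (Lat) and NK cell markers 0 of 7. Dendritic cell markers had 2 of 7 (Flt3 and Zbtb46) and summed to 84.8 and 82.3 in WT against 92.4 and 109 in IkL/L. In such bulk samples a change in the share of a cell type and a change in RNA per cell cannot be told apart.

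Regulators of transcription lay on both sides. Id2, which blocks the DNA binding of E proteins such as E2A, had 3.31 and 3.52 in WT against 4.44 and 5.50 in IkL/L. It was at least 1.70-fold higher (log2 1.56, with an SE of 0.27, adjusted p = 0.0354). Ell2, an elongation factor that drives secretory immunoglobulin mRNA in plasma cells, had 4.86 and 4.19 in WT against 5.93 and 6.28 in IkL/L, at least 2.98-fold higher (log2 1.58, with an SE of 0.25, adjusted p = 0.0257). Myb, which is needed in precursor cells of the blood, was among the brightest of the lower genes, with 9.15 and 9.46 in WT against 7.91 and 6.61 in IkL/L. It was 4.12-fold lower (log2 -2.04, SE 0.35, adjusted p = 0.0347). Its second probe set above the floor was lower by a like amount (log2 -2.10) without passing the threshold (adjusted p = 0.125). Cbx7, a subunit of Polycomb complexes, had 5.96 and 6.16 in WT against 4.69 and 4.94 in IkL/L, 2.38-fold lower (log2 -1.25, SE 0.21, adjusted p = 0.0347). The corepressor Tle3 was lower by 1.05 (log2 -1.05, SE 0.18, adjusted p = 0.037) and the zinc finger protein Zbtb10 by 1.10 (log2 -1.10, SE 0.20, adjusted p = 0.0461, or 0.0503 with the random block). Each of these calls was lost when single arrays were left out. With WT replicate 2 or IkL/L replicate 2 left out, the adjusted p lay between 0.0849 and 0.381 for these 6 genes. Without WT replicate 1 it was 0.101 for Id2, 0.0658 for Myb and 0.0658 for Cbx7, and without IkL/L replicate 1 it was 0.113 for Cbx7, 0.108 for Tle3 and 0.0773 for Zbtb10.

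Some of the higher genes act in cell contacts or cell death. The α-catenin gene Ctnna1 had 8.08 and 8.40 in WT against 9.20 and 9.48 in IkL/L, 2.15-fold higher (log2 1.10, SE 0.17, adjusted p = 0.0272). Ctnnd1, p120-catenin, lay under the floor in WT (3.15 and 3.21) and at 4.37 and 4.71 in IkL/L (log2 1.36, SE 0.17, adjusted p = 0.0103). Spata13 had 4.38 and 4.05 in WT against 5.51 and 5.59 in IkL/L, at least 2.38-fold higher (log2 1.33, with an SE of 0.14, adjusted p = 0.00328). Another probe set of Spata13 with a mean above the floor differed by -0.23 (adjusted p = 0.865), so the probe sets of this gene did not move alike. Bcl2l2, the survival protein Bcl-w, had 5.23 and 5.11 in WT against 6.60 and 6.49 in IkL/L, 2.59-fold higher (log2 1.37, SE 0.13, adjusted p = 0.00193). Pmaip1, the death-promoting protein Noxa, was higher too, with 4.23 and 4.47 in WT against 5.34 and 6.10 in IkL/L, a 2.58-fold difference (log2 1.37, SE 0.25, adjusted p = 0.0432). Members of the BCL2 family with opposite roles were thus both higher, and the other 11 measured members were not past the threshold. The adjusted p without IkL/L replicate 2 was 0.249 for Ctnna1, 0.0987 for Ctnnd1 and 0.284 for Pmaip1. Without WT replicate 2 it was 0.0654, 0.0604 and 0.172 for the same genes, and without WT replicate 1 it was 0.0798 for Ctnna1 and 0.115 for Pmaip1.

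The 30 lower genes included surface proteins that mark or tune mature B cells. Ms4a6c, a relative of the CD20 gene, had 9.31 and 10.08 in WT against 7.57 and 6.86 in IkL/L, 5.58-fold lower (log2 -2.48, SE 0.28, adjusted p = 0.00583). Its second probe set differed in the other direction (log2 1.19, adjusted p = 0.118), and with the mean of both the gene was not called (adjusted p = 0.378). The fall of Ms4a6c therefore belongs to 1 of its 2 probe sets. Fcer2a encodes CD23, which the sort selected before the culture. It had 7.63 and 8.06 in WT against 6.89 and 6.37 in IkL/L, 2.32-fold lower (log2 -1.21, SE 0.22, adjusted p = 0.0439). Its second probe set, with a mean of 4.25 near the floor, differed by -0.33 (adjusted p = 0.865 over probe sets). Fcer2a was the only one of the 10 B cell markers past the threshold. The median difference of those markers was -0.42, beside 0.00 for all genes, and 4 of the 10 were lower at an unadjusted p under 0.05, with 0 higher. Besides Fcer2a these were Cd79b (log2 -0.60, adjusted p = 0.465), Pax5 (log2 -0.80, adjusted p = 0.476) and Blk (log2 -0.56, adjusted p = 0.416), and whether the share of B cells moved with the genotype was not tested. Cr2, which encodes CD21, had 6.35 and 6.00 in WT against 6.12 and 5.39 in IkL/L (log2 -0.42, adjusted p = 0.646). Itga6, the α6 integrin, lay under the floor in IkL/L (3.46 and 3.63) and at 4.36 and 4.72 in WT (log2 -1.0, SE 0.14, adjusted p = 0.015). The receptor phosphatase Ptprs had 5.82 and 6.77 in WT against 4.60 and 4.37 in IkL/L, 3.50-fold lower (log2 -1.81, SE 0.33, adjusted p = 0.0476). The adjusted p without WT replicate 2 was 0.315 for Fcer2a, 0.116 for Itga6 and 0.297 for Ptprs, and without IkL/L replicate 2 it was 0.378, 0.0865 and 0.378. Without IkL/L replicate 1 it was 0.0584 for Itga6 and 0.0924 for Ptprs.

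Rasgrp1, Rgs13, Lax1 and Pde7a, which act in signalling inside the cell, were among the lower genes. Rasgrp1, which loads Ras with GTP, had 6.40 and 7.14 in WT against 5.60 and 5.39 in IkL/L, 2.42-fold lower (log2 -1.27, SE 0.23, adjusted p = 0.0474). Rgs13, which ends G protein signals of chemokine receptors, had 4.65 and 4.50 in WT against 3.01 and 2.95 in IkL/L, at least 1.29-fold lower (log2 -1.60, with an SE of 0.19, adjusted p = 0.00603). Lax1, an adaptor that restrains receptor signalling, had 6.35 and 6.34 in WT against 4.96 and 5.26 in IkL/L, 2.36-fold lower (log2 -1.24, SE 0.20, adjusted p = 0.0295). Pde7a, which breaks down cyclic AMP, was 1.96-fold lower (log2 -0.97, SE 0.14, adjusted p = 0.0146). Its other probe sets with a mean above the floor differed by -0.01 to -0.88. Of these, only the one at -0.75 was past the threshold (adjusted p = 0.0423 over probe sets). The small G protein gene Rasd1 went the other way and had 4.85 and 5.04 in WT and 6.62 in both IkL/L arrays, 3.21-fold higher (log2 1.68, SE 0.25, adjusted p = 0.019). Leaving out IkL/L replicate 2 gave an adjusted p of 0.378 for Rasgrp1, 0.0675 for Rgs13, 0.109 for Lax1, 0.146 for Pde7a and 0.146 for Rasd1. It was, without WT replicate 2, 0.257 for Rasgrp1, 0.172 for Lax1, 0.118 for Pde7a and 0.104 for Rasd1. Without IkL/L replicate 1 it was 0.086 for Rasgrp1, 0.095 for Lax1 and 0.0564 for Rasd1, and without WT replicate 1 it was 0.0711 for Lax1 and 0.0658 for Rasd1.

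Other lower genes encode secreted proteins or proteins of varied roles, and some of the 30 are not described here. Ifng, interferon gamma, had 5.48 and 6.37 in WT against 4.14 and 3.67 in IkL/L, at least 3.28-fold lower (log2 -2.02, with an SE of 0.28, adjusted p = 0.0146). The T cell markers Cd3e, Cd3d and Cd3g and all 7 measured NK cell markers lay under the floor in both groups beside it. The T cell marker Lat lay above it, with means of 4.34 in WT and 4.40 in IkL/L. Which cells carried the Ifng signal was not tested. Angptl4, a secreted inhibitor of lipoprotein lipase, had 5.01 and 5.10 in WT against 4.24 and 4.06 in IkL/L (log2 -0.90, SE 0.15, adjusted p = 0.0321). Cenpv, a centromere protein, had 6.53 and 6.57 in WT against 4.78 and 4.54 in IkL/L, 3.71-fold lower (log2 -1.89, SE 0.18, adjusted p = 0.00188). Crip1, a small LIM domain protein, had 7.14 and 7.79 in WT against 5.86 and 5.39 in IkL/L, 3.59-fold lower (log2 -1.84, SE 0.30, adjusted p = 0.0295). Pxdc1 had 7.74 and 8.38 in WT against 6.91 and 6.59 in IkL/L, 2.48-fold lower (log2 -1.31, SE 0.22, adjusted p = 0.0313). Vamp5, of a family of vesicle fusion proteins, had 6.13 and 6.48 in WT against 5.36 and 4.72 in IkL/L, 2.40-fold lower (log2 -1.26, SE 0.23, adjusted p = 0.0423). For Pxdc1 the adjusted p was 0.184 without WT replicate 2, and for Vamp5 it was 0.305 without that array and 0.0581 without WT replicate 1. Ipcef1, Unc5cl and Tmem71 lay under the floor in both IkL/L arrays and between 4.90 and 6.31 in WT. They were at least 2.32-fold, 3.20-fold and 2.86-fold lower, with adjusted p-values of 0.0134, 0.00817 and 0.0103. Among secreted proteins that were higher, the cytokine Il18 had 4.0 and 3.97 in WT against 5.12 and 5.13 in IkL/L (log2 1.14, SE 0.19, adjusted p = 0.0347). Tfpi, the inhibitor of the tissue factor pathway of clotting, had 5.63 and 5.25 in WT against 6.54 and 7.28 in IkL/L, 2.76-fold higher (log2 1.47, SE 0.25, adjusted p = 0.0321). Leaving out IkL/L replicate 2 gave adjusted p-values between 0.0849 and 0.318 for these genes other than Cenpv. It lay, without WT replicate 2, between 0.055 and 0.25 for Ifng, Angptl4, Crip1, Ipcef1, Tmem71, Il18 and Tfpi. Without WT replicate 1 it was 0.0658 for Angptl4 and 0.0798 for Il18, and without IkL/L replicate 1 it was 0.0543 and 0.0924 for those 2 genes.

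Many of the 12 h differences were already present earlier. Of the 112 genes, 41 were also called in unstimulated cells (36.61% of the 112 and 20% of the 205 called there). At 3 h 45 were called (40.18% of the 112 and 14.52% of the 310 called there), and 27 were called in all 3 conditions. Every shared call had the same direction. The conditions are not independent, as same-numbered arrays of a genotype deviated together and all comparisons share 1 estimate of spread per gene. The overlap and the shared direction are thus no separate check of the 12 h calls. The remaining 53 passed the threshold at 12 h only, which does not show that the genotypes were alike before. The median difference in the direction of the call was 1.29 at 12 h, 0.65 unstimulated and 0.71 at 3 h, where the first value was raised by the choice of the genes.

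**Figure D3:**
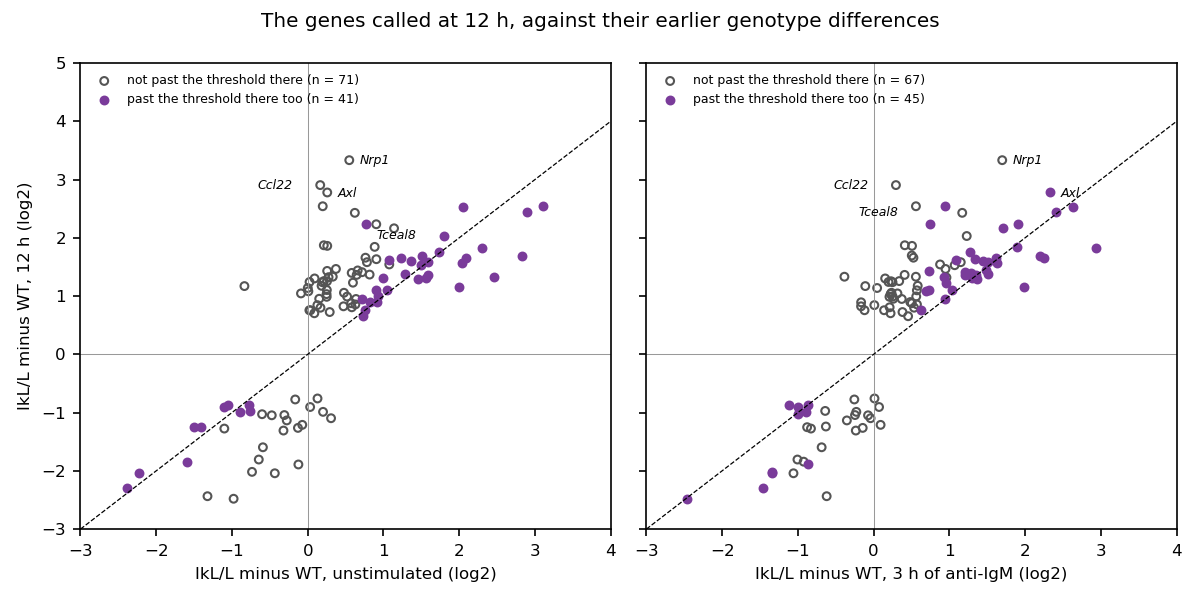
Log2 difference between IkL/L and WT at 12 h (vertical) of the 112 called genes against their difference in unstimulated cells (left) and at 3 h (right), with a dashed line of equal difference. Filled points, 41 on the left and 45 on the right, were past the threshold in that condition too, and Ccl22 stands at 2.90 at 12 h against 0.16 and 0.29 before.

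Whether a genotype difference was larger or smaller at 12 h was tested as an interaction. Against unstimulated cells 4 genes (0.022% of 18193) passed the threshold, and 3 of them are among the 112: Ccl22 (2.74, SE 0.22, adjusted p = 0.00326), Axl (2.52, SE 0.22, adjusted p = 0.00429) and Tceal8 (1.46, SE 0.17, adjusted p = 0.0488). The fourth was Rnf125, a ubiquitin ligase (2.29, SE 0.28, adjusted p = 0.0497), which was lower in unstimulated IkL/L cells (3.14 and 3.83 against 5.94 and 5.88) and lay under the floor in all 4 arrays at 12 h. Against 3 h 7 genes (0.0385%) passed. Those higher were Ccl22 (2.61, SE 0.22, adjusted p = 0.00514), St6gal1 (1.97, SE 0.26, adjusted p = 0.0491), Spata13 (1.72, SE 0.20, adjusted p = 0.024) and Tceal8 (1.50, SE 0.17, adjusted p = 0.024). Those lower (0.0165%) were Fjx1, Klf4 and Sestd1 at -1.51, -2.50 and -2.47. Each lay under the floor in all 4 arrays at 12 h after being higher in IkL/L cells at 3 h. St6gal1, the sialyltransferase that makes the ligand of CD22, went from 9.16 and 9.55 in WT against 7.91 and 7.60 in IkL/L at 3 h to 10.11 and 10.52 against 10.79 and 10.59 at 12 h. With the source as a random block the counts rose to 14 and 16, with 7 and 6 of the 112 among them, with a block shared by both genotypes to 19 and 14, and with a fixed block within genotype to 26 and 21. None of the interaction calls named here was kept when any 1 of the 4 sources was left out in all conditions. Such a fit leaves 1 array in each group of that genotype. Leaving out single arrays also lost some of these calls.

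The time courses of these genes took several shapes. Ccl22 had 3.51 and 3.62 in unstimulated WT cells, 3.69 and 3.77 in unstimulated IkL/L cells, and between 3.77 and 4.30 in the 4 arrays at 3 h. Only the IkL/L arrays at 12 h were above 6. Axl parted earlier: at 3 h it had 3.46 and 3.28 in WT against 5.59 and 5.80 in IkL/L (log2 2.33, adjusted p = 0.000382), after values between 2.81 and 3.14 in all 4 unstimulated arrays. Tmem176b was already apart without stimulus (4.19 and 4.03 in WT, 7.04 and 7.41 in IkL/L), came closer at 3 h (3.99 in both WT arrays, 4.91 and 4.94 in IkL/L) and lay further apart at 12 h. Its interaction of 12 h with 3 h was 1.60 (SE 0.22, adjusted p = 0.0617), which passed the threshold with the random block (adjusted p = 0.0298) and the shared block (adjusted p = 0.0478). Cd9 and Rhbdf1 differed by 2.05 and 2.89 in unstimulated cells, by 2.63 and 2.41 at 3 h and by 2.52 and 2.44 at 12 h, past the threshold each time. Fcer2a did not part before 12 h, with differences of -0.07 unstimulated and 0.09 at 3 h, though its interactions were not past the threshold (adjusted p = 0.537 and 0.387). Lat2, an adaptor of receptor signalling, was lower in IkL/L cells without stimulus (log2 -0.84, adjusted p = 0.0963) and higher at 12 h (log2 1.17, adjusted p = 0.034). Its interaction missed the threshold (2.01, SE 0.28, adjusted p = 0.06) and passed it with the random block (adjusted p = 0.022) and the shared block (adjusted p = 0.0247). The 12 h adjusted p of Lat2 without IkL/L replicate 2 was 0.22, without WT replicate 2 it was 0.123 and without IkL/L replicate 1 it was 0.101.

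**Figure D4:**
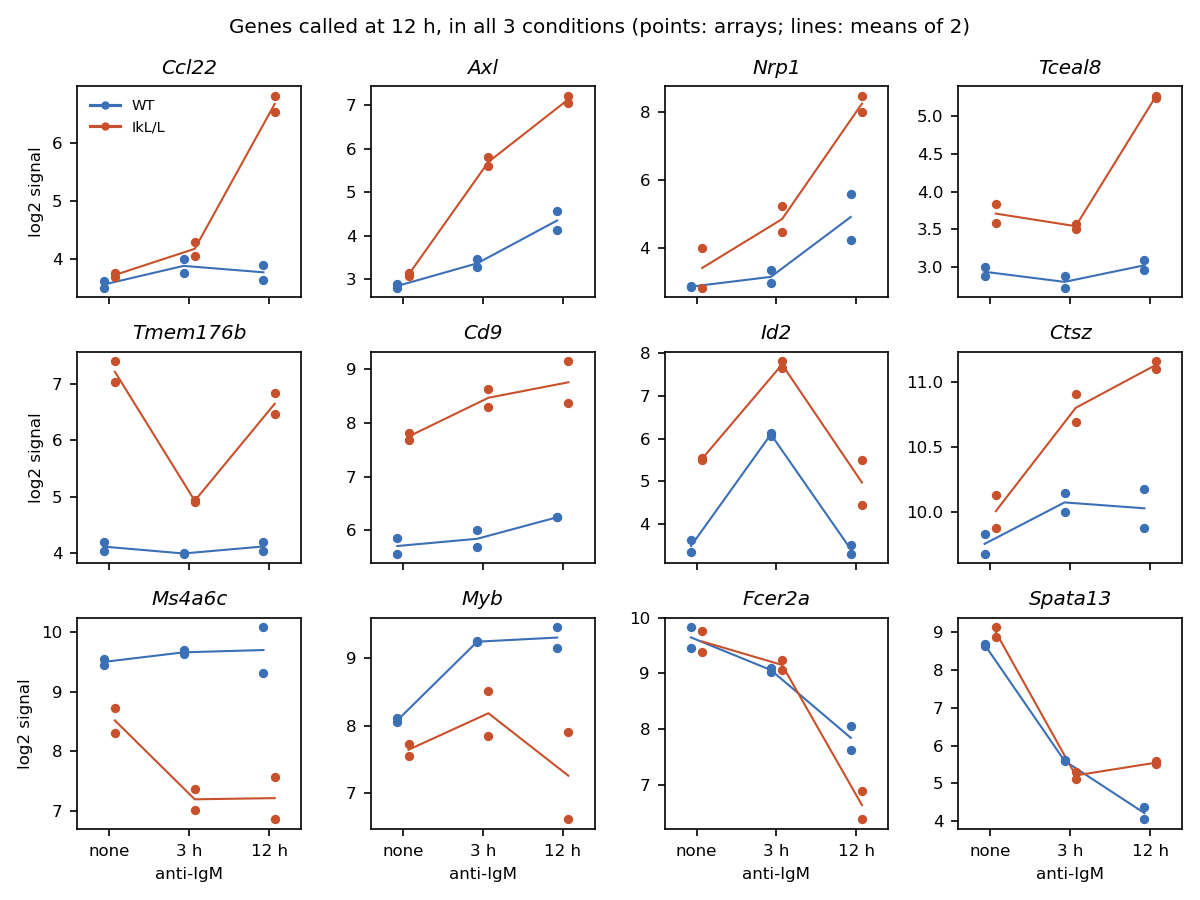
Log2 signal of 12 called genes in unstimulated cells and after 3 h and 12 h of anti-IgM, with a point for each array and lines through the means of 2 (WT blue, IkL/L orange). Ccl22 and Tceal8 part further at 12 h, Cd9 and Ms4a6c stay apart in all conditions shown, and Fcer2a parts at 12 h.

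Lists of genes for B cell pathways, written from general knowledge, held few of the called genes. Of 510 measured genes in 27 lists, 9 (1.76%) were called at 12 h, against 0.616% of all genes, and 128 (25.1%) had an unadjusted p under 0.05, against 9.99% of all genes. The 9 were Ccl22, Ctnnd1, Ell2, Cd9, Pmaip1, Bcl2l2, Manf and Ifi30, which were higher, and Cbx7, which was lower. Those shares do not compare like with like. Many listed genes lay above the floor, such as 30 of 30 for ribosome biogenesis, while many of all genes lay near background. Manf, a protein of the endoplasmic reticulum stress response, had 9.07 and 8.99 in WT against 9.83 and 9.68 in IkL/L, 1.65-fold higher (log2 0.73, SE 0.11, adjusted p = 0.0216). It lost its call without WT replicate 2 (adjusted p = 0.171), IkL/L replicate 1 (adjusted p = 0.0797) and IkL/L replicate 2 (adjusted p = 0.107). It was the called member of the unfolded protein response, 1 of 20 genes, whose median difference was 0.29, beside 0.00 for all genes.

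B cell identity factors had no called gene among 19 measured, a median difference of -0.39 and 9 genes with an unadjusted p under 0.05, of which 8 were lower. Pax5, which keeps B cells in their lineage, had 5.19 and 5.81 in WT against 4.94 and 4.47 in IkL/L (log2 -0.80, adjusted p = 0.476). Ebf1, its partner factor, had 7.65 and 7.68 in WT against 7.23 and 7.33 in IkL/L (log2 -0.39, adjusted p = 0.26). The 26 components of B cell receptor signalling had no call and a median of -0.19. Cholesterol synthesis (17 genes) and ribosome biogenesis (30 genes) had no call and medians of 0.34 and 0.18. The type I interferon list had the highest median (0.51), with 0 of 18 called, and genes such as Usp18 differed by more between the WT arrays than between the genotypes. Under a scaling to equal housekeeping means, 5 listed genes were called, and without 1 array of the 4 the count ranged from 3 to 18.

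**Figure D5:**
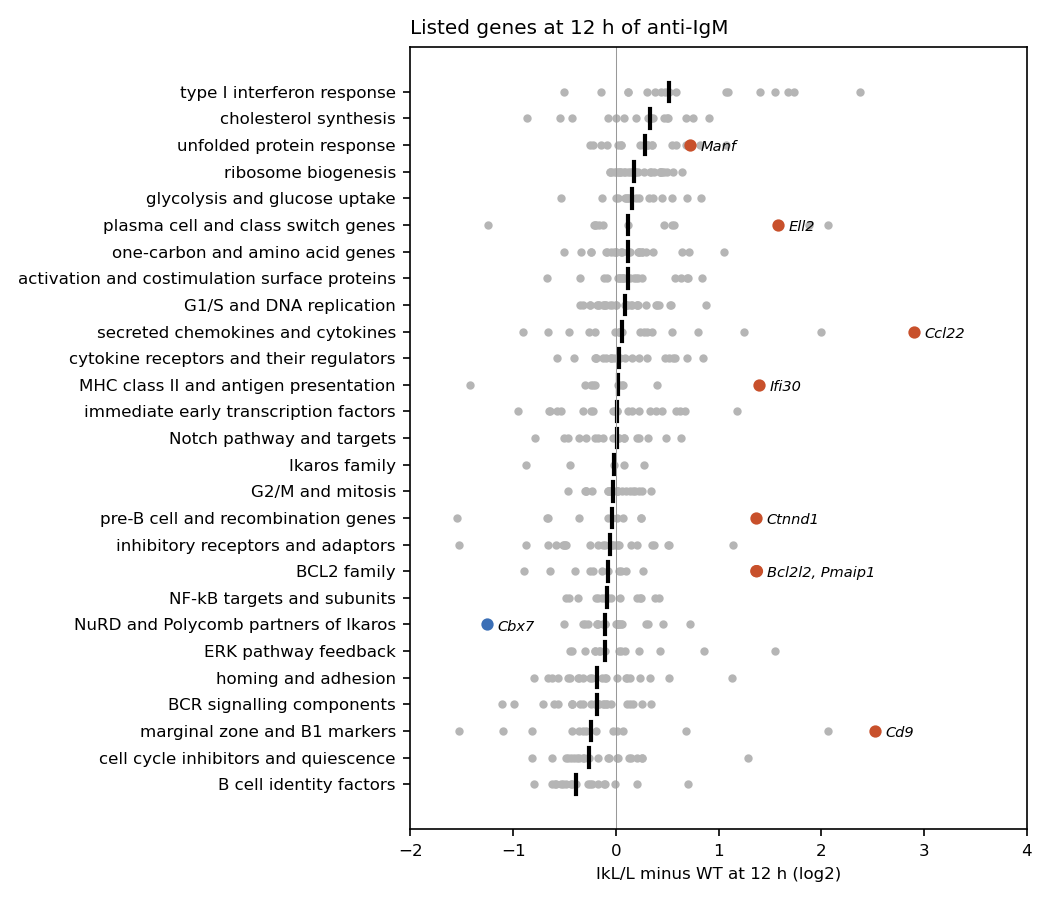
Log2 difference between IkL/L and WT at 12 h of each measured gene in 27 lists, ordered by the median of the list (black bar). The 9 called genes are coloured and named (orange higher, blue lower), and the genes in grey were not past the threshold.

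Genes often read as signs of B cell activation did not differ past the threshold. Myc, the driver of growth, had 9.96 and 9.69 in WT against 9.76 and 9.92 in IkL/L (log2 0.01, SE 0.25, adjusted p = 0.995). The activation marker Cd69 differed by -0.11 (adjusted p = 0.965), the early factor Egr1 by -0.53 (adjusted p = 0.713) and the cyclin Ccnd2 by -0.25 (adjusted p = 0.883). Cd86, a costimulatory ligand, had 8.03 and 7.36 in WT against 8.29 and 8.78 in IkL/L (log2 0.84, SE 0.27, adjusted p = 0.299). The groups of Cd86 did not overlap, but its WT arrays lay further apart than the nearest arrays of the genotypes. The inhibitory receptors Cd22 and Fcgr2b differed by 0.03 (adjusted p = 0.989) and 0.51 (adjusted p = 0.159), and the cell cycle inhibitor Cdkn1b by -0.38 (adjusted p = 0.713). Hes1 and Dtx1, targets of Notch, differed by 0.00 and -0.03, and Prdm1, the plasma cell regulator Blimp-1, by -0.21. The related factors Ikzf2 and Ikzf3 differed by 0.27 (adjusted p = 0.598) and -0.45 (adjusted p = 0.465). Hes1, Prdm1 and Ikzf2 lay under the floor in all 4 arrays at 12 h, where a difference cannot be read.

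Some larger differences missed the threshold. Zbtb32, a repressor of plasma cell responses, had 4.44 and 4.15 in WT against 5.31 and 7.42 in IkL/L (log2 2.06, SE 0.54, adjusted p = 0.17). The antibody joining chain gene Jchain had 3.84 and 3.58 in WT against 4.28 and 6.90 in IkL/L (log2 1.88, adjusted p = 0.667). In both genes IkL/L replicate 2 was the high array. The inhibitory receptor Pdcd1 had 6.48 and 7.03 in WT against 7.78 and 8.03 in IkL/L (log2 1.14, SE 0.24, adjusted p = 0.0923), which passed the threshold with the block shared by both genotypes (adjusted p = 0.0289). H2-Ob, a brake on peptide loading of MHC class II, had 8.28 and 8.79 in WT against 7.70 and 6.54 in IkL/L (log2 -1.42, SE 0.32, adjusted p = 0.11). Syndecan-1 (Sdc1), a plasma cell marker, was under the floor in all 4 arrays (3.65 and 3.98 in WT, 2.33 and 2.82 in IkL/L).

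6 pairs of called genes were neighbours among the measured genes in the RefSeq order of assembly GRCm38.p6. In 5 pairs both genes were higher: 2810025M15Rik with Cryzl2, Mir22hg with Tlcd2, Serpinb6b with Serpinb9, Tfpi with Ctnnd1, and Nbdy with Spin2c. In the sixth, Gimap3 was lower (log2 -0.87) and Tmem176b higher. Tmem176a, the paralogue of Tmem176b, differed by 0.14 (adjusted p = 0.917) with all arrays at 12 h under the floor. The 7 other measured genes of the Serpinb6 and Serpinb9 families differed by between -0.07 and 0.18, but Serpinb6c, Serpinb9b, Serpinb9c, Serpinb9d and Serpinb9g lay under the floor in all arrays, where a difference cannot be read. Of the 112 genes, 59 had other probe sets on the array: of 28 such probe sets with a mean at or above the floor, 24 had the same sign and 9 were past the threshold, and none was past it with the opposite sign.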

How the data were processed

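The authors deposited log2 signals of 45037 probe sets on 12 Affymetrix mouse 3' arrays, made with RMA (version not stated), per the submitters' processing notes. Labelling took 2 cycles from 100 ng of RNA, per the labels' protocols. RMA gives no call of presence, and array medians between 3.12 and 3.21 show that many genes lie near background. Of the probe sets, 34945 carry 1 gene symbol in the platform annotation, 932 carry several and 9160 are not listed, and the brightest single-symbol probe set (mean over all arrays) stood for each of 18193 genes.

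A limma 3.58.1 model (R 4.3.3, lmFit and eBayes) gave each of the 6 groups its own mean over all 12 arrays (6 residual and 3.95 prior degrees of freedom), so the groups share 1 estimate of spread. SE is the moderated standard error of a log2 difference. The Benjamini-Hochberg adjustment ran over all genes, and a gene was called at an adjusted p under 0.05. The number of arrays limits the precision.

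The text names the 15 largest rises and 15 largest falls, up to 3 called genes of each list and 14 genes named in advance with the sex-linked ones, and gives values for those the account turns on. Other genes were chosen after their values were seen. The comparison, lists and rules were chosen with earlier results of these data known.

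Deviations of same-numbered arrays from their group means correlated with r from 0.546 to 0.619 within WT and 0.354 to 0.49 within IkL/L over the 6064 brightest genes. Across genotypes r ranged from 0.0263 to 0.31, with 8 of 9 over 0.1, and in the same condition it was 0.154, 0.168 and 0.291. The labels do not say that a number marks a shared experiment, so the fits with a block by source and with a block shared by both genotypes are both given where they change a call. Promoters were searched with Python 3.11.15.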

Additional observations from a re-analysis of the deposited data

Results flagged for a closer look

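For 9 genes the genotype difference at 12 h differed from that in another condition, by the limma interaction at an adjusted p under 0.05. Against unstimulated cells the change in the difference was 2.74 for Ccl22, 2.52 for Axl, 2.29 for Rnf125 and 1.46 for Tceal8. Against 3 h it was 2.61 for Ccl22, 1.97 for St6gal1, 1.72 for Spata13, 1.50 for Tceal8, -1.51 for Fjx1, -2.50 for Klf4 and -2.47 for Sestd1. None of these interaction calls was kept when any 1 of the 4 sources was left out in all conditions.

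Probe sets without a single gene symbol were outside the comparison. Of 10092 such probe sets 12 were past the threshold at 12 h when fitted together with all others, 7 higher and 5 lower in IkL/L cells.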

How the results depend on the processing

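With only the arrays compared in the fit, 4 genes were called at 12 h (4 higher, 0 lower, 595 lower at an unadjusted p under 0.05 in limma), 2 and 3 for the interactions with unstimulated cells and with 3 h, 44 unstimulated and 128 at 3 h. Housekeeping scaling gave 50 calls at 12 h (38 and 12), 2 and 3 for the interactions, 196 at 3 h and 5 listed genes. A replicate block shared by both genotypes gave 187 (133 and 54), 19 and 14, 400 unstimulated and 572 at 3 h. The block within genotype gave 467 (308 and 159), 26 and 21, 717 and 935, and the random block by source 14 and 16 for the interactions. The mean of all probe sets gave 53 higher genes at 12 h and 13 for the interaction with unstimulated cells, where an intensity trend gave 7. Quantile normalization gave 49 lower genes at 12 h and 4 for the interaction with 3 h. Leaving out 1 of the arrays compared gave 24 to 162 calls at 12 h (22 to 113 higher, 2 to 59 lower), 1 to 7 and 0 to 9 for the interactions, 33 to 168 unstimulated, 33 to 166 at 3 h and 3 to 18 listed genes. Leaving out a source in all conditions (WT replicate 1, WT replicate 2, IkL/L replicate 1, IkL/L replicate 2) gave 78, 18, 104 and 4 calls at 12 h, of which 50, 13, 85 and 4 were higher and 28, 5, 19 and 0 lower. The same fits gave 83, 42, 104 and 16 unstimulated, 109, 17, 168 and 40 at 3 h, and 0, 0, 1 and 0 for each interaction. For those counts of 0 in limma, 470 genes were lower at an unadjusted p under 0.05, and the interactions held between 549 and 1303 such genes. The cause was not tested, beyond the fewer arrays in each such fit. No call at 12 h reversed its direction, which leaving out arrays could not have brought about, as the groups did not overlap. Of the calls, 73.2% were higher, against 65.7% with quantile normalization and 76% with housekeeping scaling. A floor of 4.58, chosen after the values were seen, lowered the bounds of Axl to 5.86-fold and of Tmem176b to 4.21-fold. Many differences near the floor are limited by signal over background: in 46 of the 82 higher genes a WT array, and in 12 of the 30 lower genes an IkL/L array, lay under it, and 10 called genes had both means under it.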
